A study of Mus musculus with 24 samples.

Results

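The transcripts of Trp53, which encodes the tumor suppressor p53, and of 9 of its direct target genes were followed in murine embryonic fibroblasts (MEFs) that had lost Myc, Mlx or both. The 10 genes (Trp53, Mdm2, Bax, Bbc3, Pmaip1, Ccng1, Trp53inp1, Phlda3, Zmat3 and Eda2r) were taken by symbol from the 41710 genes of each of 2 tables, and all 10 were present in both tables and passed the filter on low values. One table held primary MEFs and the other MEFs immortalized with SV40 T antigen, each with 3 libraries of wild-type (WT), MlxKO, MycKO and double-knockout (DKO) cells. The cultures came from pooled embryos of days 14 to 16, with at least 6 embryos to a pool according to the labels. All cells carried loxP-flanked ("floxed") Myc and/or Mlx alleles and a Cre-estrogen receptor fusion (CreER) driven by the broadly active ROSA26 promoter. KO cells had been exposed to 500 nM 4-hydroxytamoxifen (4OHT) for 7 days when primary and for 10 days when immortalized, whereas WT cells kept intact loci and received vehicle or no 4OHT. Activation of Cre and loss of the gene therefore cannot be told apart, nor can the genotype and the embryo pool it came from. RNA of primary cells was taken on day 10, when MycKO and DKO cells were growth-arrested. Immortalized lines were transduced and selected before excision, with 1 line for each genotype. The paper's Results report that most immortalized MycKO cells had become tetraploid or pseudo-tetraploid, while DKO cells stayed euploid. In immortalized MycKO cells, loss of Myc and this change in ploidy therefore cannot be told apart. The 3 libraries of a group came from triplicate sets of RNA, so p-values measure only the spread between those sets, which may be technical.

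p53 is a transcription factor that is held at a low level by the ubiquitin ligase Mdm2 and is stabilized when DNA is damaged or oncogenes are active. It then switches on genes that stop the cell cycle, repair DNA or start apoptosis, among them Mdm2 itself, which closes a negative feedback loop. In fibroblasts the pathway contributes to the arrest of cultured primary cells. SV40 T antigen binds p53 and blocks its action on target genes, and it also inactivates the retinoblastoma protein. Myc and Mlx belong to related families of transcription factors that bind E-box sequences. RNA sequencing reports the transcript of Trp53 and those of the targets, and not the amount or activity of p53 protein. By staining of primary cells, the paper reports more p53 protein, and more of it in the nucleus, in KO than in WT MEFs. The T antigen transcript was not analysed here.

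p53 binds DNA as a tetramer at an element made of 2 adjacent 10-base units. Matches to that consensus near the start sites of the 10 genes are described here. The genes were taken by symbol, not by these sequences. A window of 2500 bases on either side of the canonical start was searched (GENCODE gene models on GRCm39) for 2 units without a spacer, with the C and the G at the center of each unit kept and at most 2 mismatches elsewhere; the consensus reads the same on both strands. Such a match was found in 5 of the 10 windows (Bax, Pmaip1, Ccng1, Zmat3 and Eda2r), against 4.86% of the windows of 21576 protein-coding genes, where 0.70% held a match with at most 1 mismatch and 0.083% an exact one. The following 5 matches, from 4 genes, are printed 5′ to 3′ on the minus strand, on which all 4 genes lie, with the 4 central bases of each unit in capitals.
Zmat3: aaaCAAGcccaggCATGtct
Ccng1 upstream: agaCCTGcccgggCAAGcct
Ccng1 intronic: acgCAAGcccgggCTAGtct
Bax: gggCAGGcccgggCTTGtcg
Eda2r: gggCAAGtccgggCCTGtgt
The Zmat3 match (chr3:32418480-32418499) had 0 mismatches and lay in an intron, 1409 bases after the start. The upstream match of Ccng1 (chr11:40646289-40646308) began 170 bases before the start and the other (chr11:40645763-40645782) began 356 bases after it, within an intron, with 1 mismatch each. The matches of Bax (chr7:45115998-45116017) and Eda2r (chrX:96420140-96420159) were intronic, at 308 and 680 bases after the start, with 2 mismatches each. None was found in the windows of Trp53, Mdm2, Bbc3, Trp53inp1 and Phlda3, which says only that these letters were not in these windows. The E-box CACGTG, which reads the same on both strands, occurred 2 times in the promoter of Bax (250 bases before to 50 after the start), 1 time in that of Trp53inp1 and in none of the other 8, against 7.87% of all promoters searched. A match is a description of sequence and not evidence of binding.

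Levels are given in CPM, the reads of a gene relative to the reads of its library, after a scaling between libraries that the authors had applied. Each library held 15986856 to 20966163 reads on genes, and the lowest count of any member in any library was 62 reads (Bbc3 in immortalized WT library 4). The deletions remove parts of Myc and Mlx, so the transcript of each checks the labels only in part. In primary cells Myc averaged 93.9 CPM in WT and 26.5 and 21.5 CPM in MycKO and DKO cells, and Mlx averaged 23.7 CPM in WT and 13.5 and 11.2 CPM in MlxKO and DKO cells. In immortalized cells Myc averaged 12.7 CPM in MycKO and 6.01 CPM in DKO libraries, and Mlx averaged 13.8 CPM in MlxKO and 16.8 CPM in DKO cells against 23.0 CPM in WT; the Mlx difference of DKO cells did not pass the test (limma adjusted p = 0.0694). A pair of libraries stood apart from their groups. Immortalized WT library 4 correlated with the other 2 WT libraries across genes at r = 0.943 and 0.950, while those 2 correlated at 0.992, and it held 177 CPM of Myc against 48.1 and 39.9 CPM. Primary MycKO library 10 correlated with its group at 0.990 while the other 2 correlated at 0.996. Differences of members whose call changed without WT library 4 or MycKO library 10 are given with and without that library. Immortalized MycKO library 9 also stood apart, at r = 0.983 and 0.985 with its group while the other 2 correlated at 0.996. Member calls lost without it are named below. Of 10 fibroblast markers, all were at 1 CPM or more in every group, with sums of 37183 to 51721 CPM in primary and 14131 to 29694 CPM in immortalized libraries. The summed level of 7 macrophage markers ranged from 125 to 238 CPM in primary WT, from 129 to 154 CPM in MlxKO, from 19.9 to 24.6 CPM in MycKO and from 38.8 to 82.4 CPM in DKO libraries, with no marker at 0, and its part in the results on primary cells was not tested. In immortalized cells it did not exceed 5.80 CPM, with 3 or 4 of the 7 at 0. Sums of 4 epithelial markers were 16.1 to 19.3 CPM in primary WT and at most 5.91 CPM in every other group of either table. Sums did not exceed 17.3 CPM for 3 endothelial and 85.5 CPM for 3 skeletal muscle markers in any library, and reached 228 CPM for 3 neural markers. The part of these cell types in the results was not tested.

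Per kilobase of canonical transcript, the order of the levels in primary WT cells was Ccng1 (137 CPM per kb), Bax (108), Trp53 (81.3), Phlda3 (61.9), Mdm2 (59.5), Zmat3 (19.4), Trp53inp1 (14.6), Pmaip1 (13.6), Eda2r (9.62) and Bbc3 (5.74). Phlda3 and Mdm2, and Trp53inp1 and Pmaip1, were neighbors that differed by less than the spread between libraries. In immortalized WT cells the order ran Ccng1 (105 CPM per kb), Trp53 (64.5), Bax (59.7), Mdm2 (43.7), Phlda3 (21.8), Zmat3 (17.0), Trp53inp1 (15.2), Pmaip1 (10.2), Eda2r (4.17) and Bbc3 (2.69). Here Trp53 and Bax, Zmat3 and Trp53inp1, Trp53inp1 and Pmaip1, and Eda2r and Bbc3 were neighbors within that spread. On GRCm39, Trp53 lies at chr11:69469669-69482701 on the plus strand with Bbc3 (chr7:16042318-16052130), Trp53inp1 (chr4:11156412-11175230) and Phlda3 (chr1:135693809-135697686) also on plus strands, and Mdm2 (chr10:117524780-117546730) on a minus strand. The tables were normalized separately, and levels in one were therefore not tested against levels in the other.

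**Figure D1:**
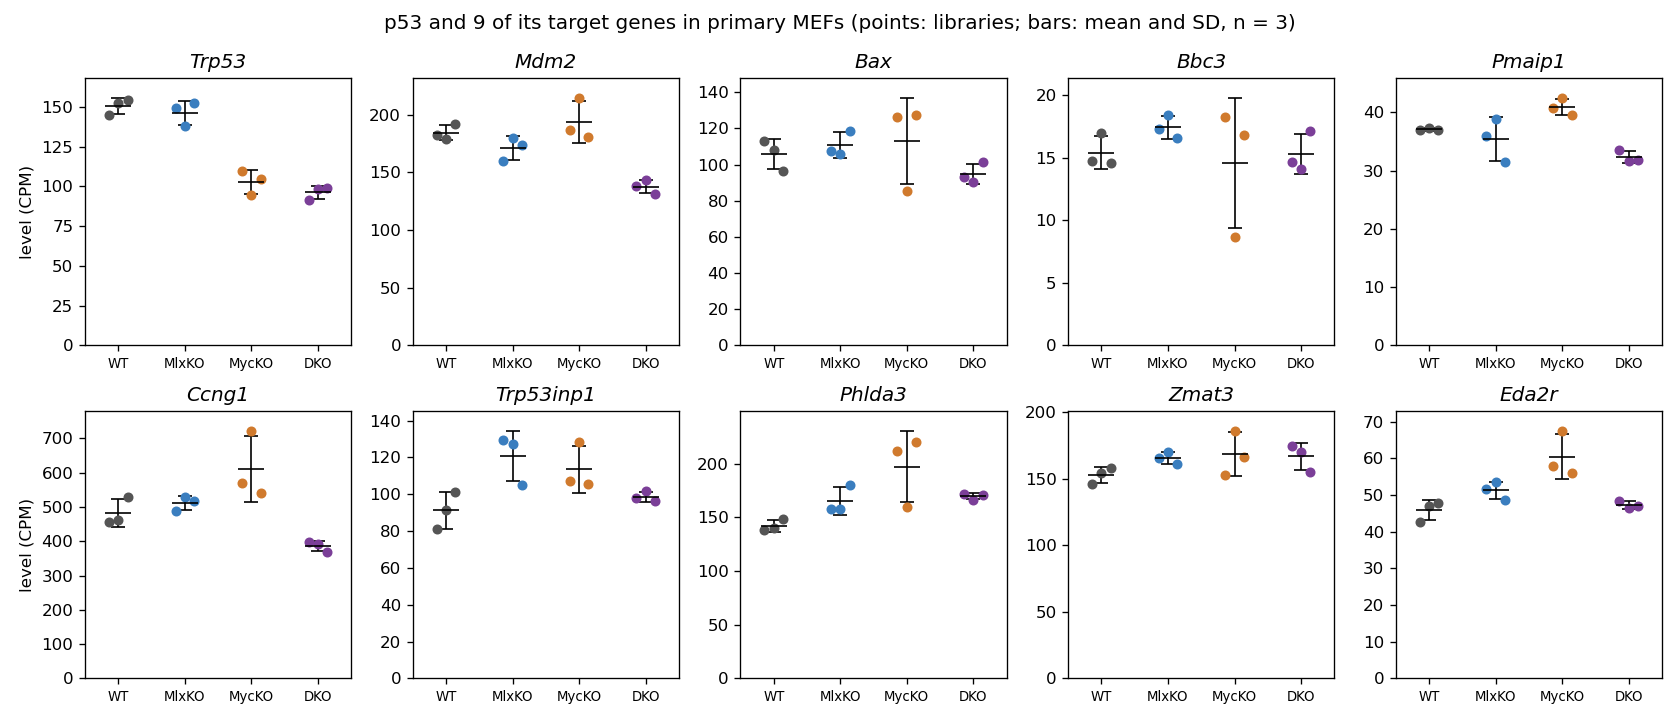
Levels (CPM) of the 10 genes in each of the 12 primary libraries, by genotype; points are libraries and bars give the mean and SD (n = 3). Trp53 lies lower in all MycKO and DKO libraries than in any WT or MlxKO library, and MycKO library 10 is the lowest of its group for Bax, Bbc3 and Phlda3 and the highest for Ccng1, Mdm2 and Eda2r.

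In primary cells the transcript of p53 itself was lower in both MycKO and DKO cells. Of its targets, 4 were higher in MycKO cells, where 42.3% of all genes tested were called, and 1 was higher and 2 were lower in DKO cells, where 49.5% were. Trp53 measured 145, 152 and 154 CPM in the WT libraries and 149, 138 and 152 CPM in MlxKO libraries. It measured 109, 94.3 and 105 CPM in MycKO and 91.5, 98.2 and 98.7 CPM in DKO libraries, and neither of these groups overlapped with WT or MlxKO. Trp53 fell by 0.55 on the log2 scale in MycKO (SE 0.07, limma adjusted p = 6.56e-06) and by 0.64 in DKO cells (SE 0.07, adjusted p = 8.87e-07), while its difference in MlxKO cells was -0.04 (adjusted p = 0.765). Without MycKO library 10 it fell by 0.49 in MycKO cells (adjusted p = 4.09e-06). DKO and MycKO cells differed by -0.09 (adjusted p = 0.364). The fall concerns the transcript only, as the paper's staining found more p53 protein in primary KO than in WT cells. In bulk RNA, fewer cells that express a gene and less RNA of it per cell cannot be told apart. All log2 values here are differences of log2(CPM + 1), which understates the change of genes with low levels.

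Mdm2, the ligase that marks p53 for degradation, had 183, 179 and 192 CPM in WT, 159, 179.5 and 174 CPM in MlxKO, 186, 214 and 181 CPM in MycKO and 138, 143 and 131 CPM in DKO libraries. The DKO libraries were the lowest and did not overlap with those of any other group. Mdm2 fell by 0.42 in DKO cells against WT (SE 0.07, limma adjusted p = 1.17e-04) and by 0.49 against MycKO cells (SE 0.07, adjusted p = 8.69e-05). Against WT it differed by 0.07 in MycKO (adjusted p = 0.476) and by -0.11 in MlxKO cells (adjusted p = 0.373). A correction of each library for the GC content and the length of transcripts was added with the data in view, and with it the MycKO difference passed (0.16, adjusted p = 0.0126).

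Among the targets that act on the cell cycle and on signaling, Ccng1, which encodes cyclin G1, had the largest difference between MycKO and DKO cells. It was at 456, 461 and 529.6 CPM in WT, 489, 530.1 and 517 CPM in MlxKO, 571, 721 and 542 CPM in MycKO and 397, 393 and 370.0 CPM in DKO libraries. MycKO libraries were all higher and DKO libraries all lower than WT. Ccng1 rose by 0.33 in MycKO cells (SE 0.09, limma adjusted p = 0.00647), fell by 0.32 in DKO cells against WT (SE 0.09, adjusted p = 0.00762) and fell by 0.65 in DKO against MycKO cells (SE 0.09, adjusted p = 5.28e-05). Without MycKO library 10, whose 721 CPM was the highest value, the rise in MycKO cells was 0.21 (adjusted p = 0.0148) and DKO differed from MycKO cells by -0.52 (adjusted p = 1.09e-05). After the GC and length correction the DKO difference from WT was -0.14 (adjusted p = 0.0190).

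Phlda3, a repressor of Akt signaling, had 138, 139.7 and 148 CPM in WT, 157, 158 and 181 CPM in MlxKO, 212, 159 and 221 CPM in MycKO and 172, 166 and 171 CPM in DKO libraries. Every KO library was above every WT library. Phlda3 rose by 0.46 in MycKO cells (SE 0.10, limma adjusted p = 0.00105), and by 0.60 without MycKO library 10 (adjusted p = 5.53e-07), when DKO differed from MycKO cells by -0.35 (adjusted p = 5.5e-04; -0.20 and 0.154 with it). Its rise in DKO cells was 0.25 (SE 0.10, adjusted p = 0.0359); that call was lost without any 1 of WT libraries 1 and 2 and DKO libraries 13, 14 and 15, and under library-total scaling (0.17, adjusted p = 0.154), and the corrected rise was 0.16 (adjusted p = 0.0495). In MlxKO cells its difference of 0.21 did not pass with all libraries (adjusted p = 0.179), and it passed without MycKO library 10 (0.21, adjusted p = 0.0169) and after the correction (0.22, adjusted p = 0.0349). Trp53inp1, whose product promotes p53 phosphorylation and autophagy, was at 81.3, 91.6 and 101 CPM in WT, 129.7, 127 and 105 CPM in MlxKO, 107, 128 and 105 CPM in MycKO and 98.1, 102 and 96.2 CPM in DKO libraries. The lowest MlxKO and MycKO libraries lay just above the highest WT library, and DKO overlapped with WT. Trp53inp1 was the member called in MlxKO cells, with a rise of 0.40 (SE 0.10, adjusted p = 0.0147), and it rose by 0.31 in MycKO cells (SE 0.10, adjusted p = 0.0146). The MlxKO call was lost when any of 4 libraries was left out (WT 1, WT 2, MlxKO 5 or MlxKO 6), and the MycKO call without WT 1 and under library-total scaling (0.21, adjusted p = 0.0802). Zmat3, a zinc finger protein that binds RNA and controls splicing, spanned 146 to 186 CPM over the 12 primary libraries and was called in no comparison of primary cells.

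Of the 4 apoptosis genes, Pmaip1 and Eda2r were called in a comparison of primary cells with all libraries and Bax and Bbc3 in none. Bax, which permeabilizes the outer mitochondrial membrane, was at 113, 108 and 96.4 CPM in WT, 108, 106 and 119 CPM in MlxKO, 126, 85.6 and 127 CPM in MycKO and 93.1, 90.5 and 101 CPM in DKO libraries. The groups overlapped, and the MycKO difference from WT was 0.07 (limma adjusted p = 0.649). Without MycKO library 10 Bax was higher in MycKO cells by 0.26 (adjusted p = 0.0071), and DKO differed from MycKO cells by -0.41 (adjusted p = 4.1e-04). Bbc3, which encodes the BH3-only protein Puma, spanned 8.63 to 18.4 CPM with its lowest value in MycKO library 10 and was called nowhere in primary cells. Pmaip1, which encodes the BH3-only protein Noxa, averaged 37.1 ± 0.223 CPM (SD, n = 3) in WT, 35.4 ± 3.78 in MlxKO, 40.9 ± 1.44 in MycKO and 32.3 ± 0.984 in DKO libraries. All MycKO libraries were above and all DKO libraries under those of WT. Pmaip1 fell by 0.33 in DKO against MycKO cells (SE 0.08, adjusted p = 0.00607), and its difference from WT did not pass in DKO cells with all libraries (-0.19, adjusted p = 0.0521). That difference passed without MycKO library 10 (-0.19, adjusted p = 0.0354) and under library-total scaling (-0.27, adjusted p = 0.00730), and the GC and length correction brought it to -0.01 (adjusted p = 0.956). The MycKO difference from WT, 0.14 without the correction (adjusted p = 0.178), passed with it (0.32, adjusted p = 0.00294). Eda2r encodes a receptor of the tumor necrosis factor receptor family. Its levels were 42.7, 47.1 and 47.7 CPM in WT and 51.6, 53.5 and 48.8 CPM in MlxKO libraries. They were 58.0, 67.4 and 55.9 CPM in MycKO and 48.5, 46.5 and 46.9 CPM in DKO libraries. MycKO libraries lay above those of every other group. Eda2r rose by 0.39 in MycKO cells (SE 0.08, adjusted p = 7.41e-04) and fell by 0.34 from MycKO to DKO cells (SE 0.08, adjusted p = 0.00430).

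Counted over the 10 genes in primary MycKO cells, 4 rose (Ccng1, Trp53inp1, Phlda3 and Eda2r) and 1 fell (Trp53). Of the 13101 genes tested, 42.3% were called, 20.4% higher and 21.9% lower, so the share of members called was near that of all genes. Their median difference was 0.14, against 0.00 over all genes tested (log2). In MlxKO cells 1 of 10 was called, where 8.88% of all genes were, 3.75% higher and 5.14% lower. In DKO cells 1 rose and 3 fell, against 49.5% of all genes called, 24.0% higher and 25.5% lower. From MycKO to DKO cells 4 fell (Mdm2, Pmaip1, Ccng1 and Eda2r) and 0 rose, against 21.5% called, 10.6% higher and 11.0% lower, and the median over the members was -0.21 against -0.01 over all genes. With MycKO library 10 left out, 6 members were called for MycKO, 2 for MlxKO and 5 for DKO cells against WT, and 6 between MycKO and DKO cells. Of 13060 genes tested then, 6216, 2025 and 7188 were called against WT, and 3286 between MycKO and DKO cells. The comparisons with WT share the WT libraries. Under library-total scaling the median of all genes moved to -0.09 in MycKO and -0.08 in DKO cells, and the share of higher genes among those called went from 48.3% to 31.4% in MycKO, from 48.5% to 37.2% in DKO and from 42.2% to 53.8% in MlxKO cells.

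The interaction term asks whether loss of both genes differs from the sum of the separate losses on the log2 scale. In primary cells it was negative for all 10 genes and passed the test for 4 of them, with 13.5% of all genes called, 7.47% positive and 6.07% negative. The 10 values come from the same libraries, and those of Trp53 (-0.05, SE 0.09) and Bbc3 (-0.05, SE 0.26) were small. That of Bbc3 turned positive without MycKO library 9, MycKO library 11 or DKO library 14. Ccng1 had -0.74 (SE 0.13, limma adjusted p = 6.80e-04), Trp53inp1 -0.59 (SE 0.13, adjusted p = 0.00620), Eda2r -0.50 (SE 0.11, adjusted p = 0.00494) and Mdm2 -0.38 (SE 0.10, adjusted p = 0.0167). Of these, Ccng1 and Mdm2 were under the WT level in DKO cells, whereas Trp53inp1 (0.11, adjusted p = 0.340) and Eda2r (0.05, adjusted p = 0.658) lay close to it. All 4 calls held without MycKO library 10, when Bax (-0.48, adjusted p = 0.00210) and Phlda3 (-0.56, adjusted p = 1.33e-04) were called as well, as they were after the GC and length correction (-0.33 and -0.46, adjusted p = 0.00982 and 0.00208). Over all genes, 2179 of 13060 were called without that library and 2480 of 13087 after the correction. Mdm2 lost its call without MlxKO library 6 or DKO library 15.

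**Figure D2:**
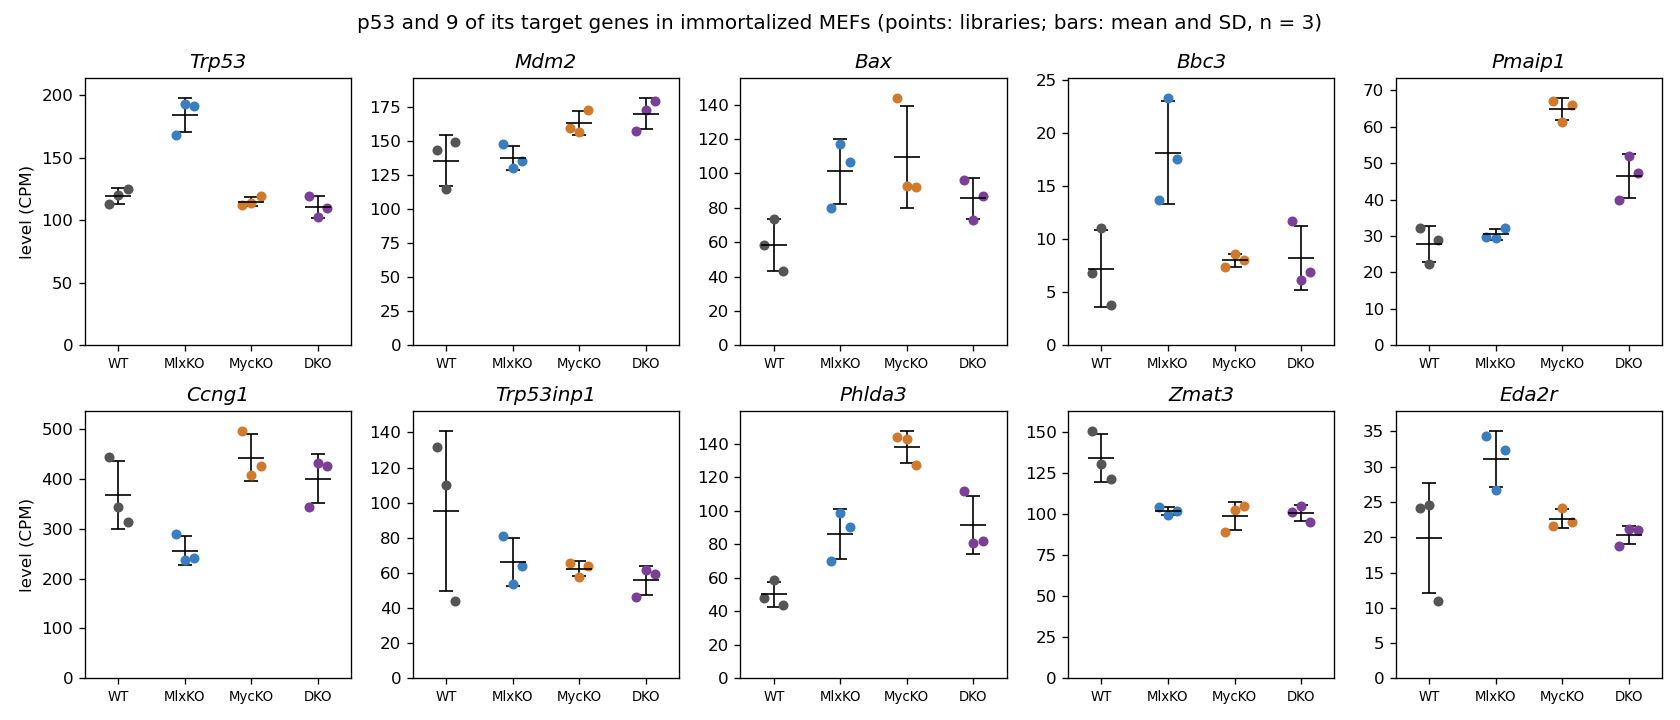
Levels (CPM) of the same 10 genes in each of the 12 immortalized libraries, by genotype; points are libraries and bars give the mean and SD (n = 3). Phlda3 lies higher in every KO library than in any WT library, Trp53 is highest in MlxKO, Pmaip1 in MycKO, and the third WT point (library 4) is the lowest of the 12 for Trp53inp1, Bax, Bbc3, Phlda3 and Eda2r.

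In immortalized cells, in which T antigen is present, the members also varied with genotype, and Phlda3 was the gene called in MycKO cells of both tables. The p53 transcript was at 113, 120.1 and 125 CPM in WT, 112, 114 and 119 CPM in MycKO and 119.7, 102 and 110.1 CPM in DKO libraries, and these 3 groups overlapped. It was at 169, 193 and 191 CPM in MlxKO libraries, above all others. Trp53 rose by 0.62 in MlxKO cells (SE 0.10, limma adjusted p = 8.18e-04) and differed from WT by -0.05 in MycKO (adjusted p = 0.680) and -0.11 in DKO cells (adjusted p = 0.440). After the GC and length correction the MlxKO rise was 0.34 (adjusted p = 0.00933), and Trp53 was called lower in MycKO (-0.29, adjusted p = 0.0100) and DKO cells (-0.25, adjusted p = 0.0421). Mdm2 had 143, 114 and 149 CPM in WT, 147, 129.7 and 135 CPM in MlxKO, 159, 157 and 173 CPM in MycKO and 157, 173 and 179 CPM in DKO libraries. MycKO and DKO libraries all lay above those of WT. Its differences from WT of 0.27 in MycKO (adjusted p = 0.0655) and 0.33 in DKO cells (adjusted p = 0.0606) did not pass in limma. Both passed without WT library 4 (0.35, adjusted p = 0.0210, and 0.40, adjusted p = 0.0218). They also passed after the correction (0.42, adjusted p = 0.00118, and 0.41, adjusted p = 0.00390) and under library-total scaling (0.28, adjusted p = 0.0421, and 0.33, adjusted p = 0.0426). The DKO difference of Mdm2 passed in DESeq2 as well (0.33, adjusted p = 0.0421).

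Phlda3 had the largest rise of any member in MycKO cells. Its levels were 48.0, 58.5 and 43.7 CPM in WT, 69.8, 98.6 and 90.2 CPM in MlxKO, 144, 143 and 127 CPM in MycKO and 111, 80.9 and 81.7 CPM in DKO libraries. No KO library overlapped with WT, and MycKO lay above the other 2 KO groups. Phlda3 rose 2.74-fold in MycKO (log2 1.45, SE 0.16, limma adjusted p = 2.61e-05), 1.80-fold in DKO (log2 0.85, SE 0.16, adjusted p = 0.00450) and 1.70-fold in MlxKO cells (log2 0.77, SE 0.16, adjusted p = 0.00372), and fell by 0.60 from MycKO to DKO cells (SE 0.16, adjusted p = 0.0145), a call lost without DKO library 14 or 15. Each rise kept its call without WT library 4 and after the GC and length correction, and the smallest corrected rise was 0.37 in MlxKO cells (adjusted p = 0.0235).

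Pmaip1 rose next most in MycKO cells. It was at 32.1, 22.3 and 28.85 CPM in WT, 29.8, 29.3 and 32.25 CPM in MlxKO, 67.1, 61.3 and 66.0 CPM in MycKO and 39.9, 52.0 and 47.3 CPM in DKO libraries. The MycKO libraries were the highest, the DKO libraries lay between MycKO and WT, and MlxKO overlapped with WT. The rise was 2.31-fold in MycKO (log2 1.21, SE 0.14, limma adjusted p = 3.54e-05) and 1.66-fold in DKO cells (log2 0.73, SE 0.14, adjusted p = 0.00464), with a fall of 0.48 from MycKO to DKO cells (SE 0.14, adjusted p = 0.0220), a call lost without MycKO library 9 or 11 or DKO library 13 or 15. In MlxKO cells the difference was 0.14 (adjusted p = 0.435), and after the GC and length correction it was 0.50 (adjusted p = 0.00710).

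Bax, Bbc3 and Eda2r were higher in MlxKO cells. Bax was at 58.2, 73.5 and 43.1 CPM in WT, 80.1, 117 and 106.5 CPM in MlxKO, 144, 93.0 and 92.1 CPM in MycKO and 96.4, 72.9 and 87.1 CPM in DKO libraries. It rose 1.87-fold in MycKO (log2 0.90, SE 0.22, limma adjusted p = 0.00566) and 1.74-fold in MlxKO cells (log2 0.80, SE 0.22, adjusted p = 0.0142), and DKO overlapped with WT (0.57, adjusted p = 0.0904). The MycKO value of 144 CPM was that of library 9, and the MycKO call held when any 1 library was left out. The GC and length correction brought the MycKO rise to 0.43 (adjusted p = 0.0265). The MlxKO call was lost without MlxKO library 6 or 7 and after the correction (0.28, adjusted p = 0.165). Bbc3 had 6.85, 11.0 and 3.77 CPM in WT, 13.7, 23.3 and 17.6 CPM in MlxKO, 7.36, 8.62 and 8.05 CPM in MycKO and 11.7, 6.17 and 6.90 CPM in DKO libraries. MlxKO libraries were all above those of the other groups, by 2.45-fold against WT (log2 1.29, SE 0.31, adjusted p = 0.00738). Without WT library 4, the lowest for Bbc3, the rise was 0.95 (adjusted p = 0.00885), and after the GC and length correction it was 0.78 (adjusted p = 0.0319). Eda2r had 24.1, 24.6 and 10.9 CPM in WT, 34.3, 26.7 and 32.3 CPM in MlxKO, 21.6, 24.1 and 22.2 CPM in MycKO and 18.8, 21.1 and 21.1 CPM in DKO libraries. MlxKO libraries were above those of every other group. The rise of 0.70 (SE 0.24, adjusted p = 0.0362) was 0.33 without WT library 4 (adjusted p = 0.0461) and 1.16 after the correction (adjusted p = 0.00775), and the call was lost without MlxKO library 5, 6 or 7.

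Zmat3, which carries the exact p53 match shown above, was lower in all 3 KO groups, with 150.3, 130.5 and 121 CPM in WT, 104, 99.4 and 102 CPM in MlxKO, 88.9, 102 and 105 CPM in MycKO and 101, 105 and 95.0 CPM in DKO libraries. WT libraries lay above every KO library. Zmat3 fell by 0.43 in MycKO (SE 0.11, limma adjusted p = 0.00518), by 0.39 in MlxKO (SE 0.11, adjusted p = 0.0128) and by 0.41 in DKO cells (SE 0.11, adjusted p = 0.0194). The MlxKO call was lost without WT library 2 or MlxKO library 6, and the DKO call without WT library 2 or DKO library 13 or 15. Ccng1 was at 444, 344 and 314 CPM in WT, 289.6, 237 and 241 CPM in MlxKO, 495, 407 and 425 CPM in MycKO and 344, 430.6 and 426 CPM in DKO libraries. MlxKO libraries were the lowest. Ccng1 fell by 0.51 in MlxKO cells (SE 0.15, adjusted p = 0.0190), a call lost without WT library 2 or MlxKO library 6 or 7, and after the GC and length correction the difference was -0.06 (adjusted p = 0.711); the Zmat3 call in MlxKO cells was also lost (-0.18, adjusted p = 0.0988). In MycKO cells the correction brought the Zmat3 difference to -0.25 (adjusted p = 0.0205), and Ccng1, at 0.28 without it (adjusted p = 0.145), was called higher with it (0.65, adjusted p = 8.45e-04). Both MlxKO falls were lost under library-total scaling as well (adjusted p = 0.0982 for Ccng1 and 0.118 for Zmat3). Trp53inp1 had 132, 110.0 and 44.3 CPM in WT, and 46.3 to 81.0 CPM over the 9 KO libraries. WT library 4 was the lowest of all 12. No Trp53inp1 difference passed in limma with it, the largest being -0.63 in DKO cells (adjusted p = 0.168). DESeq2 called that DKO difference with all libraries (-0.77, adjusted p = 0.0457). Without WT library 4 all 3 passed: MycKO cells differed by -0.94 (adjusted p = 3.19e-04), MlxKO cells by -0.87 (adjusted p = 8.94e-04) and DKO cells by -1.105 (adjusted p = 3.15e-04). These falls were not seen when all libraries were kept and corrected for GC and length. Trp53inp1 then differed from WT by 0.06 for MycKO (adjusted p = 0.900) and 0.21 for MlxKO cells (adjusted p = 0.662), both positive. For DKO cells the corrected difference was -0.32 and did not pass either (adjusted p = 0.512).

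**Figure D3:**
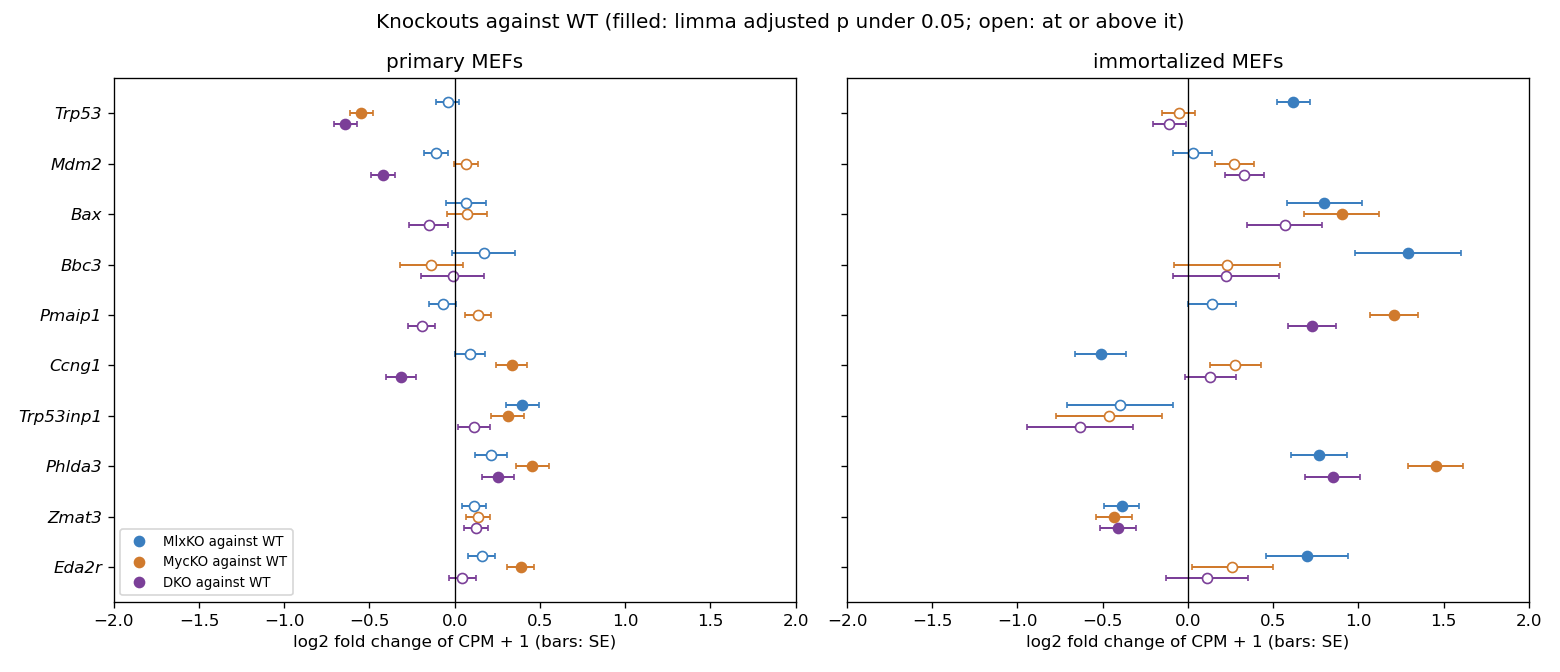
Log2 fold change of CPM + 1 against WT for each gene and KO group in primary (left) and immortalized (right) MEFs; bars give the SE from limma and filled points have an adjusted p under 0.05. Primary values lie between -0.64 and 0.46 and immortalized ones between -0.63 and 1.45.

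Counted over the 10 genes in immortalized MycKO cells, 3 rose and 1 fell; 48.0% of the 12880 genes tested were called, 24.4% higher and 23.5% lower, and the median over the members was 0.27 against 0.00 over all genes (log2). In MlxKO cells 5 rose and 2 fell, against 38.9% of all genes called, 19.1% higher and 19.9% lower, with a median of 0.38 against 0.01. In DKO cells 2 rose and 1 fell, against 18.9% called, 10.4% higher and 8.51% lower. From MycKO to DKO cells 2 fell and 0 rose, against 29.4% called, 14.8% higher and 14.6% lower. Without WT library 4 the members called against WT numbered 6 for MycKO, 8 for MlxKO and 5 for DKO cells. Of 12855 genes tested then, 6945, 6028 and 2834 were called. Without MlxKO library 6 the MlxKO count was 3, and without MlxKO library 7 it was 4. Over all genes, 2836 of 12800 and 3130 of 12802 were then called. In the fit of only DKO and WT libraries the DKO count was 1 (Phlda3), when 906 of 12880 genes were called. Under library-total scaling the median of all genes in MlxKO cells moved to 0.16, and the share of higher genes among those called went from 49.0% to 69.9%.

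The Myc-by-Mlx interaction in immortalized cells passed for 6 members, against 47.4% of all genes called, 23.7% positive and 23.8% negative. It was negative for Phlda3 (-1.37, SE 0.23, limma adjusted p = 5.61e-04), Bbc3 (-1.30, SE 0.44, adjusted p = 0.0294), Bax (-1.13, SE 0.31, adjusted p = 0.0107), Trp53 (-0.68, SE 0.14, adjusted p = 0.00186) and Pmaip1 (-0.62, SE 0.20, adjusted p = 0.0220), and positive for Zmat3 (0.415, SE 0.15, adjusted p = 0.0365). The calls of Bbc3 (MlxKO 6 and 7, MycKO 10 and 11, DKO 14 and 15), Zmat3 (WT 2, MlxKO 6 and 7, MycKO 9, DKO 13 and 14) and Pmaip1 (MlxKO 7, DKO 13) were each lost without any 1 of the libraries given in parentheses, and without MlxKO library 7 the count was 3. For Phlda3 and Bax, called higher in both MycKO and MlxKO cells, the level in DKO cells was thus under that given by adding the separate rises. After the GC and length correction the calls of Phlda3 (-0.85, adjusted p = 8.5e-04) and Pmaip1 (-1.105, adjusted p = 2.5e-04) were kept and that of Eda2r was added (-1.47, adjusted p = 0.00764), while Trp53, Bax, Bbc3 and Zmat3 had adjusted p = 0.0508, 0.158, 0.166 and 0.337. The interaction of Trp53inp1 was 0.23 with all libraries (adjusted p = 0.691), 0.70 without WT library 4 (adjusted p = 0.0149) and -0.59 after the correction (adjusted p = 0.324), so its direction depended on the treatment of the libraries. The interaction of Eda2r, -0.85 with all libraries (adjusted p = 0.0565), also passed without WT library 4 (-0.48, adjusted p = 0.0281) and under library-total scaling (-1.015, adjusted p = 0.0345), where that of Zmat3 did not (0.24, adjusted p = 0.208). Under library-total scaling the median interaction over all genes was -0.175 and the share of positive genes among those called went from 49.9% to 37.2%.

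**Figure D4:**
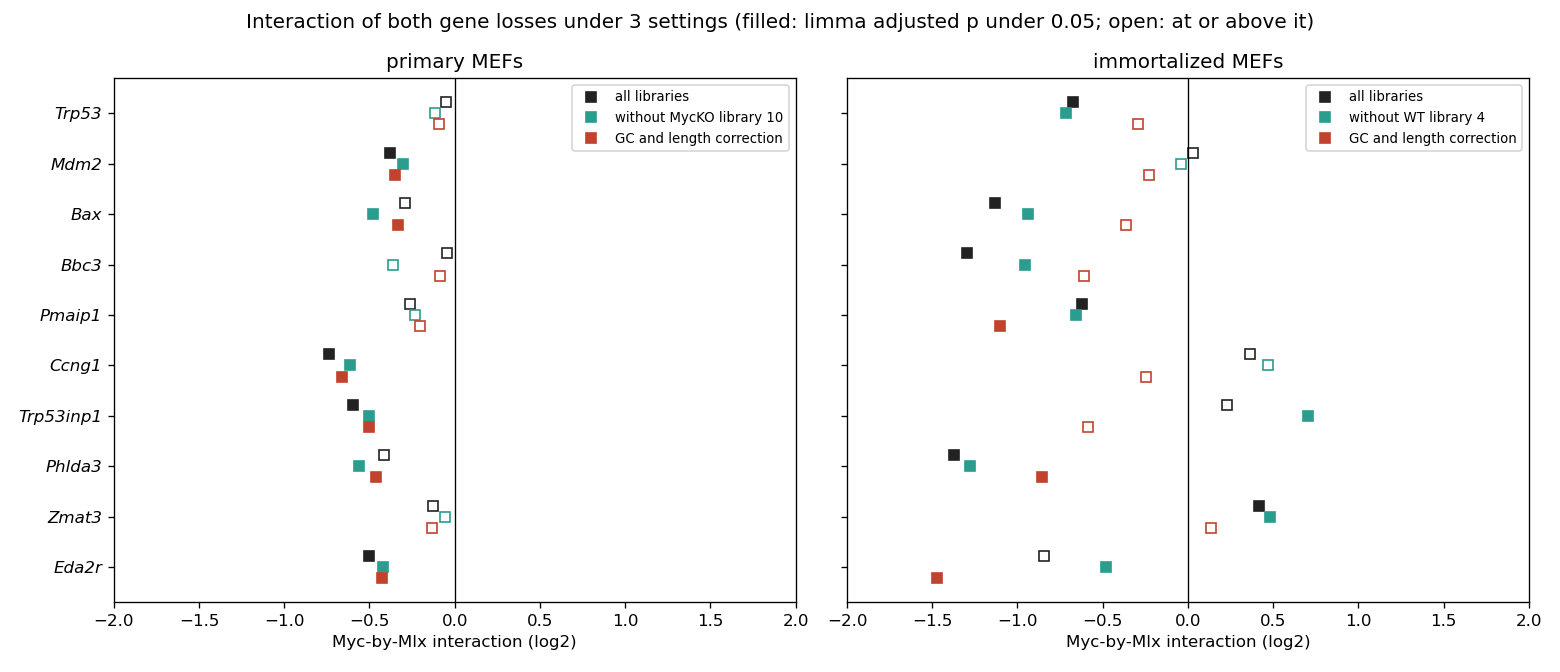
Myc-by-Mlx interaction (log2) of each gene with all libraries, without the library that stood apart in each table, and after the GC and length correction; filled squares have a limma adjusted p under 0.05. All primary values are negative under the 3 settings; in immortalized MEFs Ccng1, Trp53inp1 and Mdm2 change sign between settings.

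Base composition moved with the groups. The canonical transcripts of Bbc3 (63.7% GC), Bax (59.4%), Phlda3 (57.2%) and Trp53 (54.1%) are the richest in G and C, and those of Trp53inp1 (38.4%), Ccng1 (40.8%), Eda2r (41.1%) and Pmaip1 (42.2%) the poorest, with Mdm2 (46.3%) and Zmat3 (47.9%) between. The median log2 deviation of the genes in the highest quartile of GC minus that of the lowest quartile, measured from the mean over a table, was -0.24 to -0.70 in immortalized WT libraries and 0.08 to 0.57 in immortalized MlxKO libraries. In primary cells it was 0.23 and 0.26 in MycKO libraries 9 and 11 and -0.19 in MycKO library 10. The members called higher in immortalized MlxKO cells were the 4 richest in GC and Eda2r. With the correction, the called members numbered 7 in primary DKO against WT (Trp53, Mdm2, Bax and Ccng1 lower, and Trp53inp1, Phlda3 and Eda2r higher) and 7 in DKO against MycKO cells, all lower. Of 13087 genes tested with it, 6922 were called in the first of these comparisons and 3635 in the second.

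Upstream of p53, Mdm4, which inhibits p53 in complex with Mdm2, averaged 103 ± 4.91 CPM (SD, n = 3) in primary WT and was called in no primary comparison with all libraries. Without MycKO library 10 it was called lower in MycKO (-0.34, limma adjusted p = 6.9e-04) and DKO cells (-0.19, adjusted p = 0.0167), as it was after the correction (-0.22 and -0.16, adjusted p = 0.00302 and 0.0183) and under library-total scaling (-0.33 and -0.27, adjusted p = 0.00630 and 0.0162). In immortalized cells it averaged 129 ± 9.49 CPM in WT, 86.7 ± 11.9 in MlxKO, 93.8 ± 6.07 in MycKO and 97.8 ± 1.44 in DKO libraries, and all KO libraries lay under all WT libraries. Mdm4 fell by 0.57 in MlxKO (limma adjusted p = 0.00230), by 0.45 in MycKO (adjusted p = 0.00523) and by 0.39 in DKO cells (adjusted p = 0.0282), and after the GC and length correction it passed in none of them (-0.16, -0.12 and -0.20, adjusted p = 0.0859, 0.153 and 0.0538). Cdkn2a, the locus of p19Arf, which inhibits Mdm2, and of the CDK inhibitor p16Ink4a, could not be split into its transcripts. It spanned 42.4 to 56.9 CPM in primary libraries and was called in no primary comparison with all libraries, whereas it passed without MycKO library 10 and after the correction (0.32 and 0.15 in MycKO, limma adjusted p = 0.00104 and 0.0318, and 0.26 and 0.30 in MlxKO cells, adjusted p = 0.00910 and 0.00138). In immortalized cells it rose from 246 ± 19.7 CPM in WT to 379 ± 44.1 in MlxKO (log2 0.62, adjusted p = 0.00209) and 319 ± 25.1 in MycKO cells (log2 0.37, adjusted p = 0.0195), and neither passed after the correction (0.13 and -0.06, adjusted p = 0.186 and 0.480). Of 11 regulators tested in primary cells, 1 rose and 2 fell in MycKO, 2 rose and 1 fell in MlxKO, and 1 rose and 4 fell in DKO cells, where 42.3%, 8.88% and 49.5% of all genes were called. These counts without MycKO library 10 were 1 and 5, 3 and 1, and 1 and 6, when 6216, 2025 and 7188 of 13060 genes were called. The largest falls were those of the checkpoint kinases Chek1 (-0.86 in MycKO and -1.205 in DKO cells, limma adjusted p = 6.42e-05 and 1.48e-06) and Atm (-0.61 and -0.89, adjusted p = 3.47e-04 and 7.26e-06), and Hipk2, a kinase that phosphorylates p53, rose by 0.39 and 0.73 (adjusted p = 0.0358 and 4.34e-04) and fell by 0.57 in MlxKO cells (adjusted p = 0.0186). The Hipk2 rise in MycKO cells was not called without MycKO library 10 (0.33, adjusted p = 0.0734) or after the correction (0.21, adjusted p = 0.120). Of 12 tested in immortalized cells, 2 rose and 8 fell in MycKO, 1 rose and 4 fell in MlxKO, and 0 rose and 3 fell in DKO cells, against 24.4% of all genes called higher and 23.5% lower in MycKO, 19.1% and 19.9% in MlxKO and 10.4% and 8.51% in DKO cells. Trp63, which encodes the p53 relative p63, fell by 2.30 in MycKO (adjusted p = 3.85e-05) and by 1.16 in DKO cells (adjusted p = 0.0127), the latter a call lost without DKO library 13. Its level was low, from 0 to 7.85 CPM over the 12 immortalized libraries.

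**Figure D5:**
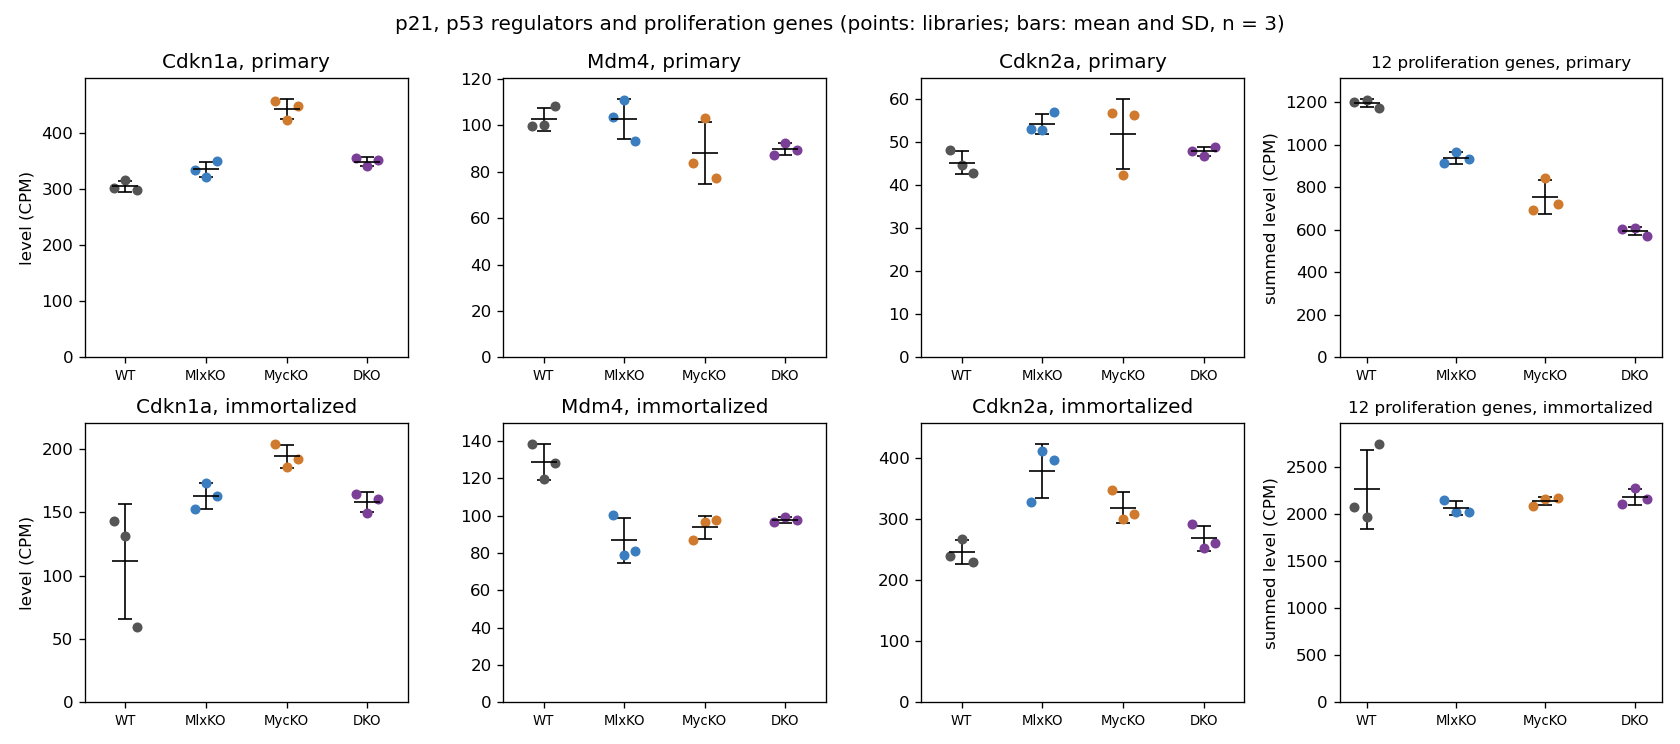
Levels (CPM) of Cdkn1a, Mdm4 and Cdkn2a and the summed level of 12 proliferation genes in primary (top) and immortalized (bottom) libraries; points are libraries and bars give the mean and SD (n = 3). Cdkn1a is highest in MycKO cells of both tables, and the proliferation genes sum to 1172.5 to 1209.6 CPM in primary WT and 570.0 to 608 CPM in primary DKO libraries.

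Cdkn1a, which encodes the CDK inhibitor p21 and is the best known target of p53 in cell cycle arrest, followed the members that rose in primary MycKO cells. It was at 301, 315 and 297 CPM in WT, 333, 322 and 349 CPM in MlxKO, 457, 422 and 447 CPM in MycKO and 354, 339.8 and 351 CPM in DKO libraries. MycKO libraries were the highest and DKO libraries lay between them and WT. Cdkn1a rose by 0.54 in MycKO (SE 0.06, limma adjusted p = 1.23e-06) and by 0.19 in DKO cells (SE 0.06, adjusted p = 0.00825) and fell by 0.34 between them (SE 0.06, adjusted p = 2.83e-04); the DKO rise did not pass under library-total scaling (0.11, adjusted p = 0.113). In immortalized cells it had 143, 131 and 59.5 CPM in WT, with library 4 the lowest, and 204, 186 and 192 CPM in MycKO libraries, a rise of 0.89 (SE 0.24, adjusted p = 0.010). Without WT library 4 the rise was 0.50 (adjusted p = 8.38e-04). In MlxKO (0.64, adjusted p = 0.0536) and DKO cells (0.60, adjusted p = 0.104) it did not pass, and without that library the differences were 0.25 (adjusted p = 0.0552) and 0.20 (adjusted p = 0.164).

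Among 30 other p53 targets, Cdkn1a included, 12 rose and 2 fell in primary MycKO cells, where 20.4% of all genes were called higher and 21.9% lower, with a median of 0.18 against 0.00 over all genes. Under library-total scaling 7 rose and 3 fell, against 1853 and 4051 of 13101 genes. The largest rises beside Cdkn1a were those of the adenylate kinase Ak1 (0.63) and the sulfatase Sulf2 (0.62; limma adjusted p = 4.83e-06 and 3.99e-06), and the largest falls those of Sesn1, a stress-induced inhibitor of mTORC1 (-0.55, adjusted p = 0.00575), and the antiproliferative gene Btg2 (-0.46, adjusted p = 0.0139). The Btg2 call was lost without WT library 1. In MlxKO cells 2 rose and 1 fell, against 3.75% of all genes called higher and 5.14% lower. Without MycKO library 10, 3 rose and 4 fell, against 875 and 1150 of 13060 genes. In DKO cells 6 rose and 7 fell, against 24.0% and 25.5%, led downward by Perp, an effector of p53-dependent apoptosis (-1.22, adjusted p = 2.18e-06), and from MycKO to DKO cells 1 rose and 10 fell, against 10.6% and 11.0%, with a median of -0.145 against -0.01 over all genes. In immortalized cells 29 could be tested, of which 9 rose and 8 fell in MycKO, 5 rose and 4 fell in MlxKO, and 6 rose and 1 fell in DKO cells, against 24.4% of all genes called higher and 23.5% lower in MycKO, 19.1% and 19.9% in MlxKO and 10.4% and 8.51% in DKO cells. These counts without WT library 4 were 9 and 12, 7 and 6, and 7 and 4, when 6945, 6028 and 2834 of 12855 genes were called. Btg2 fell by 2.02 (adjusted p = 1.97e-05) and the death receptor Tnfrsf10b by 0.96 in MycKO cells (adjusted p = 5.06e-04), while Gdf15, a secreted stress factor, rose by 1.84 in DKO cells (adjusted p = 0.00577). Gdf15 had 2 reads in WT library 4, and without that library its rise was 1.33 (adjusted p = 0.00159). From MycKO to DKO cells in the immortalized state, 9 of the 29 rose and 3 fell, against 14.8% and 14.6% of all genes. Their median was 0.05 against -0.01 over all genes, unlike in primary cells. The targets of this list thus went in both directions within 1 genotype, as the members did.

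Of 10 BCL2 family partners tested, with which Bax, Puma and Noxa interact or act in parallel, 3 rose and 0 fell in primary MycKO, 0 rose and 1 fell in MlxKO, and 2 rose and 1 fell in DKO cells, where 42.3%, 8.88% and 49.5% of all genes were called. These counts without MycKO library 10 were 5 and 0, 1 and 2, and 2 and 2, when 6216, 2025 and 7188 of 13060 genes were called. Bcl2l2, which encodes the antiapoptotic Bcl-w, rose by 0.74 in MycKO (limma adjusted p = 2.21e-06) and 0.64 in DKO cells (adjusted p = 6.72e-06), and Bid, a BH3-only protein that activates Bax, fell by 0.78 in DKO cells (adjusted p = 1.48e-06). In immortalized cells 6 rose and 1 fell in MycKO, 3 rose and 0 fell in MlxKO, and 5 rose and 1 fell in DKO cells, against 24.4% of all genes called higher and 23.5% lower in MycKO, 19.1% and 19.9% in MlxKO and 10.4% and 8.51% in DKO cells. These counts without WT library 4 were 6 and 2, 4 and 1, and 4 and 2, when 6945, 6028 and 2834 of 12855 genes were called. Bok, a Bax relative, rose by 2.13 in MycKO cells (adjusted p = 2.47e-05), and Bcl2l1, which encodes the antiapoptotic Bcl-xL, rose by 1.22 in MycKO (adjusted p = 4.84e-06), 0.60 in MlxKO (adjusted p = 0.00175; 0.22 after the GC and length correction, adjusted p = 0.0206) and 0.90 in DKO cells (adjusted p = 2.63e-04). Bmf, another BH3-only gene, fell by 0.88 in MycKO (adjusted p = 0.00315) and by 1.51 in DKO cells (adjusted p = 4.27e-04).

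Genes of proliferation moved with the primary groups. The summed level of 12 of them was 1172.5 to 1209.6 CPM in WT, 912 to 966 CPM in MlxKO, 692 to 843 CPM in MycKO and 570.0 to 608 CPM in DKO libraries. All 12 fell in MycKO and in DKO cells and 9 fell in MlxKO cells, where 21.9%, 25.5% and 5.14% of all genes fell, led by Bub1 in MycKO (-0.85, limma adjusted p = 1.65e-05), Mcm3 in DKO (-1.28, adjusted p = 8.43e-10) and Plk1 in MlxKO cells (-0.55, adjusted p = 1.36e-04). Their part in the results for the members was not tested. In immortalized libraries the sum was 1969.7 to 2748 CPM in WT, highest in library 4, and 2026 to 2277 CPM over the KO groups. Of the 12, 2 rose in MycKO, 2 rose and 1 fell in MlxKO, and 1 rose and 1 fell in DKO cells. Over all genes, 24.4% were called higher and 23.5% lower in MycKO, 19.1% and 19.9% in MlxKO, and 10.4% and 8.51% in DKO cells. The counts of the 12 without WT library 4 were 5 and 0, 3 and 1, and 2 and 0. Of 12855 genes tested then, 3514 were called higher and 3431 lower in MycKO, 2965 and 3063 in MlxKO, and 1537 and 1297 in DKO cells.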

How the data were processed

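Triplicate sets of RNA of each group were poly-A selected, made into directional libraries and sequenced on an Illumina NovaSeq instrument. The authors mapped and counted the reads on GRCm39 with CLC Genomics Workbench and deposited the signal as CPM scaled between libraries, primary and immortalized MEFs separately. The strand setting of the counting is not given in the sources used here. Library sums of the deposited signal differed, so it was not rescaled. The smallest step between values gave whole reads: 100% of values were whole within 0.05 reads, with a floor of 3 reads at 0.145 to 0.196 CPM.

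From log2(CPM + 1), limma 3.58.1 in R 4.3.3 was fitted to all 12 libraries of a table, letting the variance prior follow the mean level, for genes that reached 1 CPM in 3 or more libraries (two-sided, Benjamini-Hochberg adjusted p threshold of 0.05). An exact permutation test of 3 against 3 libraries cannot go below 0.10 and was not used. The fits were tested on simulated data. Alternatives were a smaller pseudocount (0.1), a filter on the mean (5 CPM) or none, scaling by median ratio or by library totals, a robust prior, fits of only the groups compared, each library left out, the whole reads in edgeR 4.0.16 and in DESeq2 1.42.0, the calls shared by all of limma, edgeR and DESeq2, and a minimum absolute log2 fold change of 1. A correction by natural splines (4 degrees of freedom) of transcript GC content and length was chosen after the data were seen, as was the recomputation of the other gene lists without the libraries that stood apart.

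The members and the gene lists were chosen with earlier results of these data known. All members are described. Myc and Mlx are given once, and Mdm4, Cdkn2a and Cdkn1a always. From each other list up to 3 called genes with the largest rise and 3 with the largest fall, and with libraries that do not overlap, could be named. Gene models came from GENCODE vM39 and sequence from GRCm39; 41181 of 41710 genes had a model. Trp53 shares 263 exon bases (3.56%) with Wrap53 on the opposite strand, Ccng1 shares 114 (2.59%) with Nudcd2, and Bax shares 192 (10.3%) with Gm45808 on its own strand; reads there could be assigned to either gene. Of the 50-base stretches of the Bax, Trp53 and Mdm2 transcripts, 6.03%, 2.25% and 1.75% occur in other genes. All columns of both tables were used.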

Additional observations from a re-analysis of the deposited data

Results flagged for a closer look

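The effect of one gene loss differed with the state of the other, by the interaction test, for 4 of 10 members in primary MEFs, where it was called for 13.5% of all genes: Mdm2 (-0.38), Ccng1 (-0.74), Trp53inp1 (-0.59) and Eda2r (-0.50; log2, limma adjusted p from 6.80e-04 to 0.0167). In immortalized MEFs, where it was called for 47.4% of all genes, it was called for 6 of 10 members, a share near that of all genes: Trp53 (-0.68), Bax (-1.13), Bbc3 (-1.30), Pmaip1 (-0.62), Phlda3 (-1.37) and Zmat3 (0.415; limma adjusted p from 5.61e-04 to 0.0365). The difference between primary and immortalized cells was not tested. With 3 libraries in each group, single libraries were not tested for standing far from their group.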

How the results depend on the processing

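No paired analysis was possible because nothing links the number of a column to a replicate number in the labels, so no fit with a replicate block was run. Counts of members called stayed within 1.5 times the value with all libraries in 206 of 238 recomputed counts. A minimum absolute log2 fold change of 1 left 0 in every primary comparison and in immortalized DKO against WT and against MycKO, and 2 in immortalized MycKO, 1 in MlxKO and 3 for the interaction. The GC and length correction, chosen after the data were seen, gave 2 in primary MlxKO, 7 in DKO against WT and 7 against MycKO, and 7 in immortalized MycKO, 5 in DKO and 3 for the interaction. Over all genes it called 2034, 6922 and 3635 of 13087 in these primary comparisons, and 5951, 2776 and 5418 of 12863 in the immortalized ones. In immortalized DKO against WT the fit of only those groups gave 1 and DESeq2 gave 5, when 906 and 3003 of 12880 genes were called. When each library was left out in turn, primary counts ranged from 4 to 6 in MycKO, 0 to 2 in MlxKO, 3 to 5 in DKO against WT, 4 to 6 against MycKO and 3 to 6 for the interaction, and immortalized counts from 4 to 6, 3 to 8, 2 to 5, 0 to 2 and 3 to 8 in the same order. The fall from MycKO to DKO in immortalized cells was left with 0 members without DKO library 15. Over all genes, the number called in primary MlxKO cells went from 1164 to 2034 with the correction, and ranged from 620 (without WT library 1) to 2025 (without MycKO library 10); in immortalized MlxKO cells from 5014 to 3339 with the correction, and to 2836 without MlxKO library 6; and in immortalized DKO against WT from 2434 to 906 in the fit of only those groups, and to 1095 without DKO library 13. The sign of a member's difference changed in 53 recomputed results, 0 of which were called with all libraries. Causes were not tested. Members had at least 62 reads in a library, and counting error was not compared with the spread between the 3 libraries of a group.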
